A study of Mus musculus with 18 samples.

Results

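Interferon-stimulated effector genes encode the proteins that carry out an interferon response, as distinct from the receptors, kinases and transcription factors that relay it. They were taken as 44 named genes in 9 groups by role and matched by gene symbol. Of these, 42 were among the 18922 genes of the deposited tables, and Mx1 and Mx2 were not analysed here. All 42 passed the filter on low counts.

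RNA-seq was done on brain tissue of male C57Bl6 mice aged 8 to 10 weeks, either Trem2 knockout (KO) or wild type (WT), 7 days after a photothrombotic stroke. In this model the light-sensitive dye Rose Bengal, here 50 mg/kg, is excited by a laser through the skull, here 525 nm at 125 mW, and clots the vessels of a cortical disc, here 3 mm across. The groups were KO infarct core, KO peri-infarct tissue, KO contralateral tissue, WT infarct core, WT peri-infarct tissue and WT contralateral tissue, with 3 libraries each and 18 in all. Every mouse had a stroke, so contralateral tissue is the other side of an injured brain and not the brain of an uninjured mouse. The labels do not name the knockout allele or the cells that lack Trem2. They also do not say whether the 3 libraries of a group came from separate mice, so the p-values measure the spread between these libraries, part of which may be technical. The tissue was cut out in bulk, in which fewer cells of a type and less RNA per cell cannot be told apart.

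Trem2, the lipid-sensing receptor of microglia and macrophages, was lower in all 9 libraries labelled KO, as those labels state. It stood at 13.3, 19.6 and 13.3 TPM (transcripts normalised for length and depth) in KO core, against 443, 514 and 1338 TPM in WT core. Peri-infarct Trem2 was 6.75, 8.23 and 10.1 TPM in KO tissue, against 331, 233 and 307 TPM in WT tissue, and contralateral Trem2 was 1.81, 2.47 and 0.90 TPM in KO tissue, against 75.8, 56.02 and 74.03 TPM in WT tissue. Total counts were 16993978 to 17691801 in 17 libraries and 18713770 in WT core replicate 3, and the 42 effectors together took 0.0297% to 0.276% of them. WT core replicate 3 stood apart from every other library. Its 8 neuronal markers summed to 4.36 TPM, against 3463 and 3036 TPM in the other WT core libraries, and its 7 general myeloid markers to 9633 TPM, against 3444 and 4071 TPM. The counts below are therefore given with all 18 libraries and again without it, which leaves WT core with 2 libraries. How that library is scaled also matters. In log2 CPM (counts scaled by effective library size, not by length) it lay above all 3 KO core libraries for 25 effectors, within them for 6 and below them for 11, but in TPM above them for 5, within them for 14 and below them for 23.

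Interferons are secreted proteins that signal through cell-surface receptors, JAK kinases and STAT factors. STAT and IRF factors together bind the interferon-stimulated response element (ISRE) in gene promoters, and STAT dimers bind the gamma-activated site (GAS). The effectors made in response block viral translation, sense and cut foreign RNA, tag proteins with ISG15 and restrict pathogens at membranes. In brain tissue, microglia, astrocytes, endothelial cells and infiltrating leukocytes can all make them.

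The promoters of most effectors that could be read held an ISRE, and some are shown because the ISRE is the element described above. RefSeq windows on GRCm38.p6, from 250 bases before to 50 bases after the annotated start, were at hand for 33 of the 42, and both strands were searched. The ISRE letters GAAANNGAAA occurred for 20 of these 33 effectors (60.6%), against 3.77% of the 14799 genes in the tables that had a window. Counted by window and not by gene, they occurred in 3.44% of all 32851 windows. The GAS letters TTCNNNGAA occurred in 8 of the 33 (24.2%), against 8.6% of the genes in the tables. A match describes the letters and does not show that a factor binds there. The sequences below are the 190 bases that end just before the annotated start, 5′ to 3′ on the gene's strand, for 7 effectors whose values are given further on, with ISRE matches on either strand in capitals. Matches that overlap run together, as in Isg15.

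Isg15, chr4:156200819-156201008 (minus strand): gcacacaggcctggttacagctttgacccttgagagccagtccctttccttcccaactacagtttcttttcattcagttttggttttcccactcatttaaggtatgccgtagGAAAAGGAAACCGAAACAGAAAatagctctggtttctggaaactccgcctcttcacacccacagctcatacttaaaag
Ifit1, chr19:34640699-34640888 (plus strand): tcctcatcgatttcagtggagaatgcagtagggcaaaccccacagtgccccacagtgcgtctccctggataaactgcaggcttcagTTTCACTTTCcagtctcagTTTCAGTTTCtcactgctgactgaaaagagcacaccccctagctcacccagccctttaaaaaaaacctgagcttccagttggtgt
Ifit3, chr19:34583339-34583528 (plus strand): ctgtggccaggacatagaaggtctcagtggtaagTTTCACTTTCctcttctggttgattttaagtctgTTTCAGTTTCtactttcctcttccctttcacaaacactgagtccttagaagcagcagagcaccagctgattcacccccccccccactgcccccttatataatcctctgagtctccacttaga
Ifit3b, chr19:34607767-34607956 (plus strand): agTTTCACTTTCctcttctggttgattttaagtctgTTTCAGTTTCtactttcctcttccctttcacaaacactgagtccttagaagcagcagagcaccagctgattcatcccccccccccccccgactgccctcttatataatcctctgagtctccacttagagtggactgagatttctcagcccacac
Rsad2, chr12:26456453-26456642 (minus strand): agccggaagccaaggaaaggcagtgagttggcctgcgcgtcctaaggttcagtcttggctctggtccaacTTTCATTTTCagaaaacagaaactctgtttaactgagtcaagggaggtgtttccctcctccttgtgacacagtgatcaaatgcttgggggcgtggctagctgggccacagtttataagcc
Gbp2, chr3:142620473-142620662 (plus strand): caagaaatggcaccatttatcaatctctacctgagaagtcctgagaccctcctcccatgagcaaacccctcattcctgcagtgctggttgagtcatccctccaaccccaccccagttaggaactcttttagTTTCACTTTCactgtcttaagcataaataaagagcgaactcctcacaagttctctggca
Irgm1, chr11:48871421-48871610 (minus strand): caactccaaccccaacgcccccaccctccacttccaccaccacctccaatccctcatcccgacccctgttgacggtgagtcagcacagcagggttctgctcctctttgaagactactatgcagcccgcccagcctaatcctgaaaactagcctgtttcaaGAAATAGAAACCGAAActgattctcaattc

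The window of Isg15 held 3 overlapping matches, those of Ifit1, Ifit3, Ifit3b and Irgm1 held 2 each, and those of Rsad2 and Gbp2 held 1 each. The printed stretches of Ifit3 and Ifit3b, neighbouring copies on chromosome 19, share an unbroken run of 109 identical bases that holds 2 ISRE matches. The 20 effectors with a match and the 13 without one were set side by side with no test. Their median log2 fold change between KO core and KO contralateral tissue was 2.51 with a match and 2.38 without, and between KO core and WT core, without WT core replicate 3, it was 1.12 with a match and 1.09 without.

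By summed TPM the effectors were high in the lesion of both genotypes and highest in the KO core. Their summed level was 3077, 3226 and 2417 TPM in KO core, 1228, 1499.6 and 2369 TPM in WT core, 1642, 1887 and 1666 TPM in KO peri-infarct tissue and 1058, 1159.7 and 1476 TPM in WT peri-infarct tissue. It was 430.5, 509.5 and 714 TPM in KO contralateral tissue, against 592, 360.2 and 469.9 TPM in WT contralateral tissue. The highest of the WT core values belongs to replicate 3. By share of total counts that library, at 0.249%, lay above KO core replicates 1 and 3, at 0.246% and 0.193%. It lay below KO core replicate 2, at 0.276%. By mean TPM in KO core, which is per transcript length, the most abundant were Ifitm3 at 475, Lgals3bp at 352, Ifi27l2a at 347 and Bst2 at 221 TPM, and the least abundant was Oas3 at 5.48 TPM. In each group 1 library held the highest log2 CPM for most effectors. It was KO core replicate 2 for 37 of 42 (36.3% of all genes), KO peri-infarct replicate 2 for 32 (31.4%), KO contralateral replicate 3 for 35 (27.4%), WT core replicate 3 for 40 (46%), WT peri-infarct replicate 3 for 40 (28.6%) and WT contralateral replicate 1 for 40 (36.3%).

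**Figure D1:**
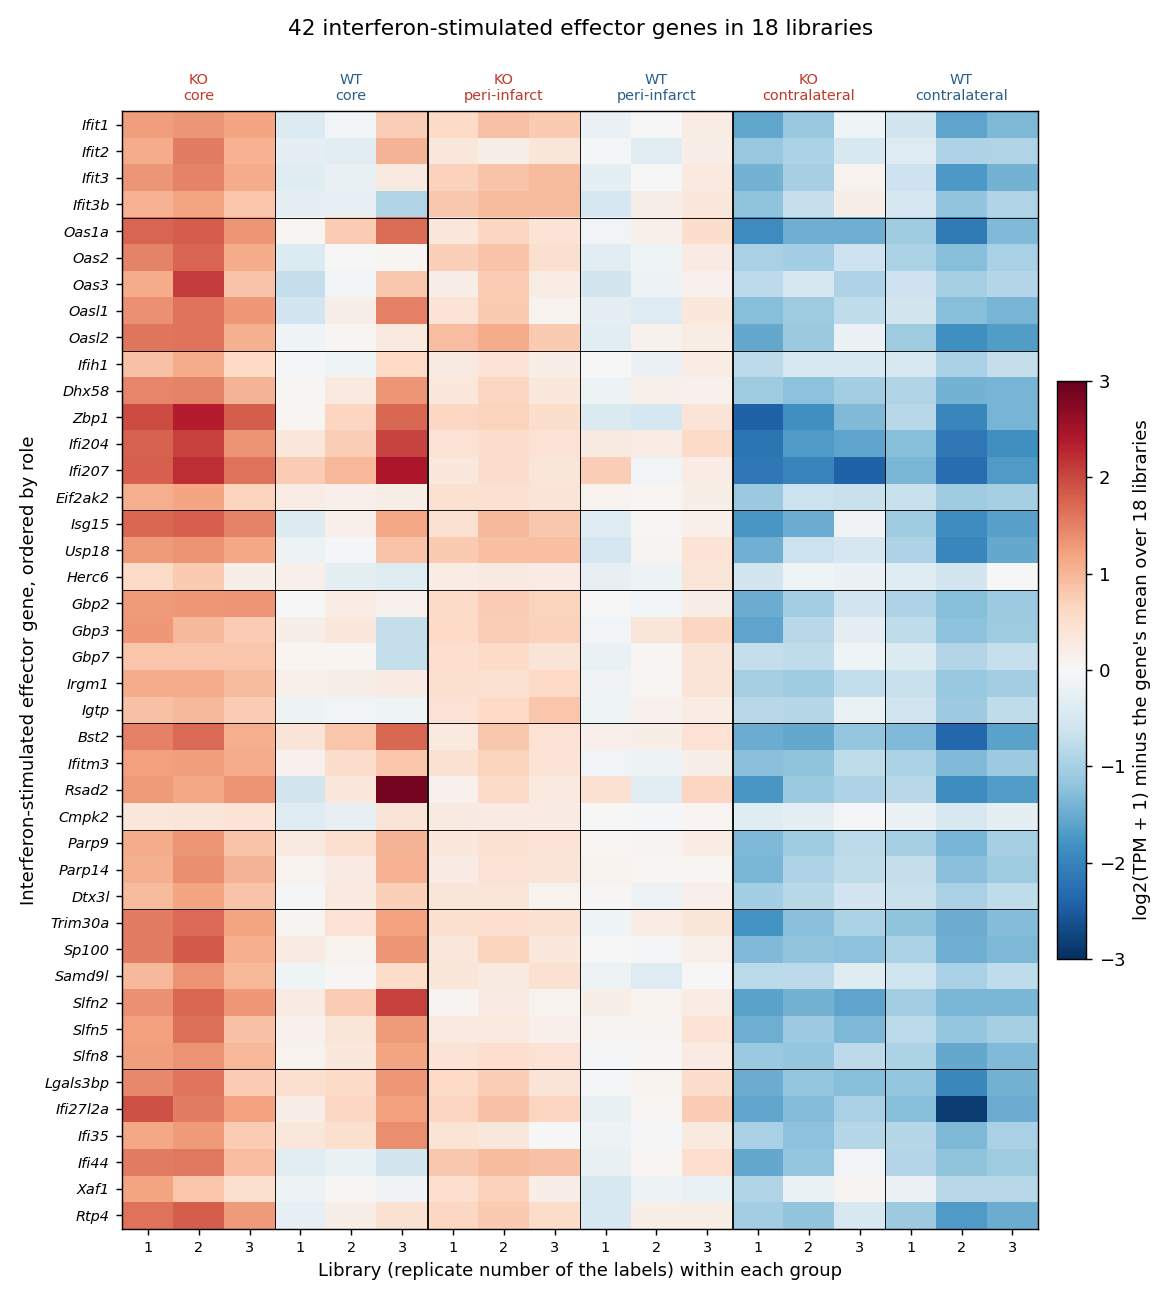
Level of the 42 effectors (rows, ordered by role) in the 18 libraries (columns), as log2(TPM + 1) minus each gene's mean over all libraries, with red above and blue below the mean. The KO core libraries are the reddest block, the contralateral libraries are blue, and WT core replicate 3 is redder than the other WT core libraries for most effectors.

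In the core, 41 of 42 effectors rose in KO tissue and 40 of 42 rose in WT tissue, each relative to the contralateral tissue of that genotype, and none fell. A gene is called here at an adjusted p under 0.05 in edgeR's quasi-likelihood test with Benjamini-Hochberg adjustment over 15329 genes. The share of all genes called higher was 19.7% for the KO core and 29.1% for the WT core. The median log2 fold change of the effectors was 2.55 in KO core and 2.30 in WT core, against -0.01 and -0.03 over all genes. In peri-infarct tissue 30 of 42 rose in KO tissue (4.42% of all genes called higher, median 1.76 against 0.04 over all genes) and 20 of 42 rose in WT tissue (3.27% of all genes called higher, median 1.46 against 0.02 over all genes). The fitted change was positive for all 42 in each of the 4 comparisons, which share the contralateral libraries within a genotype. Every KO peri-infarct library lay above every KO contralateral library in log2 CPM for all 42 effectors, as for 25.7% of all genes, and the same held in WT tissue for 40, all but Herc6 and Xaf1, as for 22.3% of all genes.

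Markers of other cells moved with the lesion too, and their part in the result was not tested. The 7 general myeloid markers summed to 3529.7, 3938 and 2807 TPM in KO core, 1408, 1577 and 1534 TPM in KO peri-infarct tissue and 432, 393 and 330.4 TPM in KO contralateral tissue. In WT tissue they summed to 3444, 4071 and 9633 TPM in WT core, 2713, 1920.2 and 2169.5 TPM in WT peri-infarct tissue and 596, 468 and 621 TPM in WT contralateral tissue. They were higher in both lesion tissues than on the contralateral side in each genotype. Neutrophil markers summed to 259, 585 and 311 TPM in KO core, 15.6, 38.9 and 83.8 TPM in KO peri-infarct tissue and 11.2, 19.4 and 7.57 TPM in KO contralateral tissue. The WT sums of neutrophil markers were 60.1, 96.95 and 375 TPM in WT core, 23.6, 14.4 and 15.2 TPM in WT peri-infarct tissue and 17.5, 44.6 and 18.3 TPM in WT contralateral tissue. Fibroblast markers summed to 773, 1478 and 1235 TPM in KO core, 131, 121 and 213 TPM in KO peri-infarct tissue and 62.5, 47.3 and 60.9 TPM in KO contralateral tissue. The WT sums of fibroblast markers were 663, 677 and 1263 TPM in WT core, 328, 58.2 and 63.4 TPM in WT peri-infarct tissue and 78.7, 51.1 and 67.8 TPM in WT contralateral tissue. Both sums were higher in the core than on the contralateral side in every library, while in peri-infarct tissue the KO fibroblast sum alone stood clear of the contralateral values. The 8 neuronal markers went the other way, with 2285, 2335 and 2309.8 TPM in KO core, 4039, 4079 and 3645 TPM in KO peri-infarct tissue and 4942, 5475 and 5075 TPM in KO contralateral tissue. The WT sums of neuronal markers were 3463, 3036 and 4.36 TPM in WT core, 4138, 4360.1 and 4441 TPM in WT peri-infarct tissue and 5365, 5619.8 and 6584 TPM in WT contralateral tissue. Astrocyte markers summed to 3706 to 4997 TPM in KO core, 3862 to 4661 TPM around it and 2302 to 2374 TPM contralaterally. In WT tissue they summed to 3751, 3487 and 408 TPM in core, 3029 to 4818 TPM around it and 2509 to 2607 TPM contralaterally. Infiltrating and border macrophage markers summed to 145 to 217 TPM in KO core, against 8.96 to 14.6 TPM contralaterally. The WT sums of these were 102 to 320 TPM in core, against 10.9 to 22.9 TPM contralaterally.

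The peri-infarct counts depended on single libraries, and the share of all genes called is given only for the fit without WT core replicate 3. The other counts in this paragraph do not show whether the effectors moved apart from other genes. Without WT core replicate 3 the effectors called higher were 41 in KO peri-infarct tissue (13.7% of all genes), 40 in WT peri-infarct tissue (14.2%), 42 in KO core (29.6%) and 36 in WT core (23.6%, with the median at 1.59). Not called in that setting were Herc6 in KO peri-infarct tissue, Herc6 and Xaf1 in WT peri-infarct tissue, and Ifit2, Ifit3b, Oas3, Herc6, Cmpk2 and Xaf1 in WT core. The KO peri-infarct count was 3 without KO contralateral replicate 1 or 2, 11 without replicate 3, 16 without KO peri-infarct replicate 1 and 9 without replicate 2 or 3. The WT peri-infarct count was 0 without any 1 of the WT contralateral libraries or without WT peri-infarct replicate 1 or 3, 10 without WT peri-infarct replicate 2 and 13 without KO peri-infarct replicate 2. In the core, leaving out any 1 library kept the count between 40 and 42 in KO tissue and between 36 and 41 in WT tissue. Fitting the WT core and WT contralateral libraries alone, without the spread of the other groups, ended all 40 WT core calls and left 0.

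The IFIT proteins bind foreign RNA and block its translation. All 4 rose in KO core and 3 of 4 in WT core, and 1 of 4 rose in KO and 0 of 4 in WT peri-infarct tissue. Ifit3, which partners IFIT1 in that complex in humans, measured 191, 211 and 164 TPM in KO core, against 58.3, 64.02 and 91.0 TPM in WT core. Peri-infarct Ifit3 stood at 121, 137 and 146 TPM in KO tissue, against 61.1, 74.5 and 92.3 TPM in WT tissue. Contralateral Ifit3 stood at 27.5, 37.05 and 81.7 TPM in KO tissue, against 48.4, 22.1 and 27.7 TPM in WT tissue. All 3 KO values lay above all 3 WT values in the core and in the peri-infarct tissue, and they overlapped on the contralateral side, where KO replicate 3 was the highest. Ifit3 rose by 2.09 ± 0.44 (log2 ± SE) in KO core (adjusted p = 0.0031, edgeR's quasi-likelihood test with Benjamini-Hochberg adjustment, as for every adjusted p here) and by 1.63 ± 0.43 in WT core (adjusted p = 0.0094). Its peri-infarct changes, 1.50 ± 0.43 in KO and 1.32 ± 0.43 in WT tissue, had adjusted p = 0.066 and 0.13. Ifit1, which recognises foreign RNA ends, measured 31.9, 33.6 and 30.5 TPM in KO core, against 9.37, 11.96 and 22.1 TPM in WT core. Peri-infarct Ifit1 stood at 19.8, 24.3 and 22.7 TPM in KO tissue, against 11.2, 12.6 and 15.01 TPM in WT tissue. Contralateral Ifit1 stood at 3.71, 5.24 and 11.7 TPM in KO tissue, against 8.43, 3.58 and 4.44 TPM in WT tissue. In TPM KO and WT libraries did not overlap in the core or around it, but in log2 CPM they overlapped in the core, where WT core replicate 3 lay above every KO library. Ifit3 stayed apart on both scales. The Ifit1 change was 2.35 ± 0.50 in KO core and 1.96 ± 0.50 in WT core. Counts of Ifit3 and Ifit3b were not whole numbers in any of the 18 libraries, so the split of reads between these near-identical copies is uncertain. In log2 units over contralateral tissue, the remaining changes were 2.27 for Ifit2 and 1.67 for Ifit3b in KO core, and 1.62 for Ifit2 and 0.77 for Ifit3b in WT core.

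The OAS enzymes sense double-stranded RNA and make a small messenger that activates RNase L, and the OAS-like genes are their relatives. All 5 rose in the core of both genotypes, and 3 of 5 rose in the peri-infarct tissue of each. Oasl2, an OAS-like gene of mice, measured 73.95, 75.2 and 50.2 TPM in KO core, against 21.4, 24.7 and 29.3 TPM in WT core. Peri-infarct Oasl2 stood at 45.6, 52.4 and 41.1 TPM in KO tissue, against 18.9, 25.8 and 27.6 TPM in WT tissue. Contralateral Oasl2 stood at 7.49, 10.3 and 20.7 TPM in KO tissue, against 10.7, 5.88 and 6.74 TPM in WT tissue. KO lay above WT in the core and in the peri-infarct tissue on both scales. Oasl2 rose by 2.52 ± 0.40 in KO core and 2.18 ± 0.39 in WT core, and by 1.89 ± 0.39 (adjusted p = 0.019) in KO and 1.74 ± 0.39 (adjusted p = 0.031) in WT peri-infarct tissue. Oasl1, which in mice holds back translation of the interferon regulator IRF7, measured 8.59, 10.4 and 8.02 TPM in KO core, against 1.48, 3.13 and 9.51 TPM in WT core. Peri-infarct Oasl1 stood at 3.86, 5.30 and 2.96 TPM in KO tissue, against 2.01, 1.81 and 3.59 TPM in WT tissue. Contralateral Oasl1 stood at 0.51, 0.77 and 1.18 TPM in KO tissue, against 1.51, 0.52 and 0.41 TPM in WT tissue. WT core replicate 3 was far above the other WT core libraries and lay among the KO core values. Oasl1 rose by 3.47 ± 0.72 in KO core, and by 3.72 ± 0.75 in WT core with that library but 2.18 ± 0.48 without it (adjusted p = 0.0021). Over contralateral tissue the remaining changes were 3.61 for Oas1a, 3.40 for Oas2 and 3.81 for Oas3 in KO core, and 3.31 for Oas1a, 2.23 for Oas2 and 2.91 for Oas3 in WT core, as log2 values. Counts of Oas1a and Oas3 were not whole in 18 and 15 libraries, so reads shared with other loci are uncertain.

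Among the sensors, Ifih1 (MDA5) and Dhx58 (LGP2) detect RNA, Zbp1 detects Z-form nucleic acid, Ifi204 and Ifi207 belong to the DNA-sensing PYHIN family and Eif2ak2 encodes PKR, the kinase that halts translation. All 6 rose in the core of both genotypes, and 5 of 6 in KO and 3 of 6 in WT peri-infarct tissue. Ifi207 measured 29.1, 39.1 and 25.9 TPM in KO core, against 13.8, 16.3 and 45.6 TPM in WT core. Peri-infarct Ifi207 stood at 9.77, 11.4 and 10.1 TPM in KO tissue, against 13.5, 7.19 and 9.10 TPM in WT tissue. Contralateral Ifi207 stood at 0.96, 1.21 and 0.60 TPM in KO tissue, against 2.37, 0.77 and 1.66 TPM in WT tissue. Contralateral levels were the lowest of the 3 tissues in both genotypes, and WT core replicate 3 was the highest library of all. Ifi207 had the largest rise of the 42 in both cores, 5.21 ± 0.66 in KO core (adjusted p = 0.00021) and 4.60 ± 0.63 in WT core (adjusted p = 0.00015), and 3.38 ± 0.35 in WT core without replicate 3. Eif2ak2 measured 35.5, 37.6 and 26.0 TPM in KO core, against 18.8, 18.1 and 18.7 TPM in WT core. Peri-infarct Eif2ak2 stood at 22.6, 22.5 and 21.2 TPM in KO tissue, against 17.3, 16.9 and 18.4 TPM in WT tissue. Contralateral Eif2ak2 stood at 6.84, 9.95 and 9.75 TPM in KO tissue, against 9.81, 7.19 and 7.50 TPM in WT tissue. In TPM KO lay above WT in the core and around it. In log2 CPM the core groups overlapped, since WT core replicate 3 stood at 6.38, above 5.69 in both other WT core libraries. Eif2ak2 rose by 2.02 ± 0.20 in KO core and 1.63 ± 0.20 in WT core, and by 1.35 ± 0.20 (adjusted p = 0.0056) in KO and 1.19 ± 0.20 (adjusted p = 0.022) in WT peri-infarct tissue. Zbp1, which can start necroptosis, rose by 4.08 ± 0.55 in KO core and 3.55 ± 0.54 in WT core. In log2 units over contralateral tissue, the remaining changes were 1.85 for Ifih1, 2.99 for Dhx58 and 3.97 for Ifi204 in KO core, and 1.65 for Ifih1, 2.89 for Dhx58 and 3.77 for Ifi204 in WT core. Counts of Ifi204 and Eif2ak2 were fractional in every one of the 18 libraries, so reads they share with other loci are uncertain.

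ISG15 is a ubiquitin-like tag, HERC6 attaches it in mice and USP18 removes it and restrains the type I interferon receptor. All 3 genes rose in KO core, 2 of 3 in WT core, 1 of 3 in KO and 0 of 3 in WT peri-infarct tissue. Isg15 measured 148, 156 and 125 TPM in KO core, against 32.7, 49.0 and 99.02 TPM in WT core. Peri-infarct Isg15 stood at 60.6, 86.9 and 77.4 TPM in KO tissue, against 33.2, 44.9 and 48.7 TPM in WT tissue. Contralateral Isg15 stood at 12.5, 15.2 and 40.9 TPM in KO tissue, against 20.6, 11.4 and 13.5 TPM in WT tissue. KO contralateral replicate 3 was well above its group, as it was for Ifit3. Isg15 rose by 2.80 ± 0.56 in KO core and 2.61 ± 0.56 in WT core, while its peri-infarct changes of 1.76 ± 0.54 in KO and 1.58 ± 0.55 in WT tissue had adjusted p = 0.088 and 0.17. Herc6, the member of this system with the highest count, measured 16.6, 19.3 and 12.4 TPM in KO core, against 12.2, 8.89 and 8.25 TPM in WT core. Peri-infarct Herc6 stood at 12.8, 13.4 and 13.2 TPM in KO tissue, against 9.05, 9.72 and 14.3 TPM in WT tissue. Contralateral Herc6 stood at 7.08, 9.86 and 9.49 TPM in KO tissue, against 8.16, 7.04 and 10.8 TPM in WT tissue. It differed less between tissues than Isg15, and peri-infarct KO and WT values overlapped. Herc6 rose by 1.01 ± 0.24 in KO core (adjusted p = 0.0073) and its change in WT core was 0.57 ± 0.24 (adjusted p = 0.07). Over contralateral tissue the remaining change was 2.39 for Usp18 in KO core, and 2.52 for Usp18 in WT core, as log2 values.

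The interferon-inducible GTPases attack the membranes of vacuoles and pathogens. All 5 measured ones, Gbp2, Gbp3, Gbp7, Irgm1 and Igtp, rose in all 4 comparisons of lesion with contralateral tissue, and this was the only role group with that count. Gbp2, a guanylate-binding protein, measured 38.7, 38.9 and 40.05 TPM in KO core, against 15.2, 18.1 and 16.7 TPM in WT core. Peri-infarct Gbp2 stood at 23.4, 26.7 and 24.7 TPM in KO tissue, against 15.5, 14.4 and 17.6 TPM in WT tissue. Contralateral Gbp2 stood at 4.81, 6.88 and 9.92 TPM in KO tissue, against 7.60, 5.67 and 6.64 TPM in WT tissue. Every KO library lay above every WT library in the core and in the peri-infarct tissue, in TPM and in log2 CPM, while the contralateral values overlapped. In log2 CPM WT core replicate 3 stood at 4.93, above 4.09 and 4.34 in the other WT core libraries. Gbp2 rose by 2.58 ± 0.25 in KO core, 1.77 ± 0.24 in WT core, 1.82 ± 0.24 in KO peri-infarct tissue (adjusted p = 0.0043) and 1.35 ± 0.24 in WT peri-infarct tissue (adjusted p = 0.022). Irgm1, which regulates the other immunity-related GTPases, measured 86.4, 86.01 and 76.96 TPM in KO core, against 43.9, 44.5 and 47.1 TPM in WT core. Peri-infarct Irgm1 stood at 55.4, 54.6 and 60.05 TPM in KO tissue, against 36.6, 40.8 and 51.4 TPM in WT tissue. Contralateral Irgm1 stood at 19.1, 18.2 and 23.1 TPM in KO tissue, against 24.5, 17.4 and 18.5 TPM in WT tissue. In TPM KO lay above WT in the core and in the peri-infarct tissue, and in log2 CPM the genotypes overlapped in both. Irgm1 rose by 2.19 ± 0.23 in KO core and 1.63 ± 0.23 in WT core. In log2 units over contralateral tissue, the remaining changes were 2.06 for Gbp3, 1.65 for Gbp7 and 1.67 for Igtp in KO core, and 1.39 for Gbp3, 0.93 for Gbp7 and 1.18 for Igtp in WT core.

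**Figure D2:**
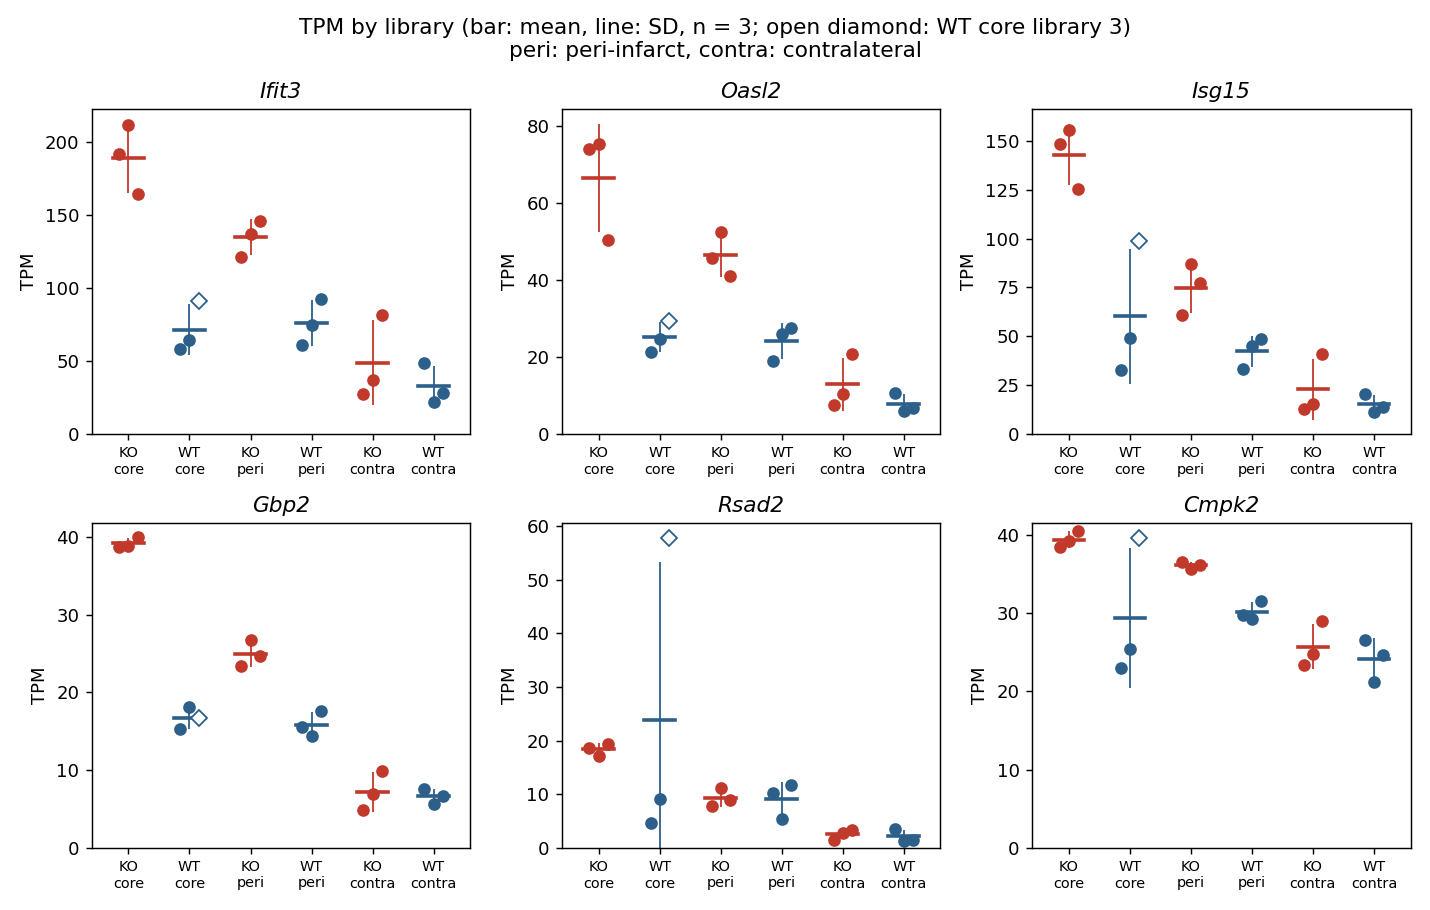
TPM of Ifit3, Oasl2, Isg15, Gbp2, Rsad2 and Cmpk2 in each library by tissue and genotype, with the group mean and SD (n = 3) and WT core replicate 3 as an open diamond. In TPM the KO core libraries lie above the WT core libraries for the first 4 genes, while for Rsad2 and Cmpk2 WT core replicate 3 reaches or passes the KO core values.

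Bst2 tethers virions to the cell surface, Ifitm3 blocks membrane fusion, and Rsad2 (viperin) and Cmpk2 make and supply an antiviral nucleotide. In this group 3 of 4 rose in KO core, 4 of 4 in WT core, and 2 of 4 in the peri-infarct tissue of each genotype. Rsad2 measured 18.6, 17.04 and 19.4 TPM in KO core, against 4.55, 9.10 and 57.8 TPM in WT core. Peri-infarct Rsad2 stood at 7.86, 11.1 and 8.97 TPM in KO tissue, against 10.2, 5.37 and 11.6 TPM in WT tissue. Contralateral Rsad2 stood at 1.42, 2.75 and 3.26 TPM in KO tissue, against 3.57, 1.18 and 1.52 TPM in WT tissue. WT core replicate 3 was the highest library of all for Rsad2 and the other WT core libraries were below all KO core libraries. Rsad2 rose by 3.02 ± 0.87 in KO core (adjusted p = 0.022), and by 4.26 ± 0.92 in WT core with replicate 3 against 1.85 ± 0.45 without it. Cmpk2 measured 38.5, 39.2 and 40.6 TPM in KO core, against 23.1, 25.4 and 39.6 TPM in WT core. Peri-infarct Cmpk2 stood at 36.6, 35.7 and 36.1 TPM in KO tissue, against 29.8, 29.3 and 31.6 TPM in WT tissue. Contralateral Cmpk2 stood at 23.4, 24.8 and 29.04 TPM in KO tissue, against 26.6, 21.2 and 24.7 TPM in WT tissue. It was already expressed on the contralateral side and had the smallest fold change of the 42 in KO core. The Cmpk2 change was 0.75 ± 0.28 in KO core (adjusted p = 0.072) and 0.80 ± 0.28 in WT core (adjusted p = 0.037), but 0.16 ± 0.10 in WT core without replicate 3 (adjusted p = 0.25). Over contralateral tissue the remaining changes were 3.03 for Bst2 and 2.44 for Ifitm3 in KO core, and 3.44 for Bst2 and 2.18 for Ifitm3 in WT core, as log2 values.

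PARP9 and DTX3L form a complex of an ADP-ribosyltransferase and a ubiquitin ligase, and PARP14 is a related transferase. All 3 rose in the core of both genotypes and in KO peri-infarct tissue, and 1 of 3 rose in WT peri-infarct tissue. Parp14 measured 14.4, 18.3 and 13.96 TPM in KO core, against 6.95, 7.76 and 14.2 TPM in WT core. Peri-infarct Parp14 stood at 7.75, 8.95 and 8.67 TPM in KO tissue, against 6.93, 6.74 and 6.76 TPM in WT tissue. Contralateral Parp14 stood at 1.86, 2.88 and 3.36 TPM in KO tissue, against 3.52, 2.10 and 2.52 TPM in WT tissue. WT core lay above WT peri-infarct tissue in every library, and WT core replicate 3 lay among the KO core values. Parp14 rose by 2.67 ± 0.40 in KO core and 2.37 ± 0.39 in WT core, and by 1.69 ± 0.38 in KO peri-infarct tissue (adjusted p = 0.026), where the WT change was 1.42 ± 0.38 (adjusted p = 0.062). In log2 units over contralateral tissue, the remaining changes were 2.46 for Parp9 and 2.17 for Dtx3l in KO core, and 2.41 for Parp9 and 1.83 for Dtx3l in WT core. Counts of Parp9 and Dtx3l were not whole in 17 libraries each, so reads shared with other loci are uncertain.

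Trim30a, Sp100, Samd9l and the Schlafen genes Slfn2, Slfn5 and Slfn8 act on innate signalling, nuclear bodies and RNA. All 6 rose in the core of both genotypes and in KO peri-infarct tissue, and 2 of 6 rose in WT peri-infarct tissue. Slfn2, a regulator of immune cell quiescence, measured 43.96, 56.3 and 41.6 TPM in KO core, against 19.6, 28.8 and 71.4 TPM in WT core. Peri-infarct Slfn2 stood at 17.3, 19.8 and 17.6 TPM in KO tissue, against 18.8, 17.6 and 19.3 TPM in WT tissue. Contralateral Slfn2 stood at 4.76, 5.56 and 4.81 TPM in KO tissue, against 7.39, 5.74 and 5.78 TPM in WT tissue. On the contralateral side the KO values were all below the WT values, and WT core replicate 3 was above all others. Slfn2 rose by 3.37 ± 0.51 in KO core and 3.29 ± 0.50 in WT core, or 2.09 ± 0.19 in WT core without replicate 3. Slfn5, the family member with the highest count, measured 25.6, 34.6 and 19.8 TPM in KO core, against 11.4, 13.5 and 26.6 TPM in WT core. Peri-infarct Slfn5 stood at 12.9, 12.9 and 11.6 TPM in KO tissue, against 11.03, 10.9 and 14.01 TPM in WT tissue. Contralateral Slfn5 stood at 3.12, 4.32 and 3.48 TPM in KO tissue, against 5.49, 4.04 and 4.70 TPM in WT tissue. The genotypes overlapped in all 3 tissues when WT core replicate 3 was counted. Slfn5 rose by 3.01 ± 0.42 in KO core and 2.41 ± 0.41 in WT core. Counts of Slfn5 and Slfn8 were not whole in 16 and 8 libraries, so reads shared with other Schlafen genes are uncertain. Those of Trim30a and Sp100 were not whole in 17 and 12 libraries, so reads shared with other loci are uncertain too. Over contralateral tissue the remaining changes were 3.16 for Trim30a, 3.04 for Sp100, 2.15 for Samd9l and 2.80 for Slfn8 in KO core, and 2.73 for Trim30a, 2.70 for Sp100, 1.67 for Samd9l and 2.91 for Slfn8 in WT core, as log2 values.

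The other effectors were Lgals3bp, a secreted glycoprotein, Ifi27l2a, a mitochondrial protein, Ifi35, Ifi44, the apoptosis factor Xaf1 and the antiviral zinc-finger gene Rtp4. All 6 rose in the core of both genotypes, and 4 of 6 in the peri-infarct tissue of each. Lgals3bp measured 382, 434 and 241 TPM in KO core, against 198, 209 and 348 TPM in WT core. Peri-infarct Lgals3bp stood at 213, 237 and 184 TPM in KO tissue, against 135, 152 and 205 TPM in WT tissue. Contralateral Lgals3bp stood at 49.2, 62.4 and 57.7 TPM in KO tissue, against 62.8, 36.2 and 51.8 TPM in WT tissue. KO core replicate 3 was the lowest of its group and lay below WT core replicate 3. Lgals3bp rose by 2.78 ± 0.39 in KO core and 2.85 ± 0.39 in WT core. Ifi27l2a measured 437, 336 and 267 TPM in KO core, against 132, 178 and 272 TPM in WT core. Peri-infarct Ifi27l2a stood at 179.9, 215 and 182 TPM in KO tissue, against 99.5, 121 and 195 TPM in WT tissue. Contralateral Ifi27l2a stood at 38.4, 45.9 and 58.8 TPM in KO tissue, against 47.03, 15.2 and 40.2 TPM in WT tissue. KO and WT libraries overlapped in each tissue, through replicate 3 in the core. Ifi27l2a rose by 3.05 ± 0.49 in KO core and 3.10 ± 0.50 in WT core, and by 2.08 ± 0.48 (adjusted p = 0.027) in KO and 2.12 ± 0.49 (adjusted p = 0.034) in WT peri-infarct tissue. In log2 units over contralateral tissue, the remaining changes were 2.38 for Ifi35, 2.75 for Ifi44, 1.43 for Xaf1 and 2.46 for Rtp4 in KO core, and 2.58 for Ifi35, 1.37 for Ifi44, 0.88 for Xaf1 and 1.91 for Rtp4 in WT core.

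Core and peri-infarct tissue were then compared within each genotype. In KO tissue 0 of 42 effectors passed at the adjusted threshold in edgeR's quasi-likelihood test with all libraries, as did 0% of all genes, while all 42 were higher in the core (median 0.92 against -0.04 over all genes). At an unadjusted p under 0.05 there were 26 (18.6% of all genes, either direction), and DESeq2 called 7 (5.84% of all genes). With WT core replicate 3 left out, 32 of 42 rose (24.3% of all genes called higher, median 0.99). Every KO core library lay above every KO peri-infarct library in log2 CPM for 36 effectors, as for 26.1% of all genes, and the exceptions were Herc6, Ifi44, Ifit3b, Igtp, Oasl2 and Xaf1. In WT tissue 5 of 42, Slfn2, Ifitm3, Ifi207, Ifi35 and Zbp1, rose in the core over the peri-infarct tissue (median 0.88). That is no larger a share than the 12.3% of all genes called higher. Without WT core replicate 3 the count was 0 (4.88% of all genes called higher) and the median 0.15, with 28 of 42 positive. The count was 25 without WT core replicate 1 and 19 without replicate 2. No share of all genes called is set beside the 25 and the 19. They therefore do not show whether the effectors moved apart from other genes. In log2 CPM WT core lay above WT peri-infarct tissue in every library for 7 effectors, with or without replicate 3. The share over all genes was larger, at 19.4% with it and 19.9% without it.

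The genotypes were then compared within each tissue, which asks whether the effectors stood at another level where Trem2 was missing. In the core with all 18 libraries, 0 of 42 effectors passed in edgeR's quasi-likelihood test (0.00652% of all genes called higher), 13 had an unadjusted p under 0.05 (11.9% of all genes, either direction), and DESeq2 called 5 (0.594% of all genes). The median difference was 0.49 (log2, KO over WT; -0.01 over all genes), with 37 of 42 positive. On the log2(TPM + 1) scale, where limma called 6, all 42 were positive and the median was 0.89, while the median of all genes itself moved to 0.23. No share of all genes called by limma is set beside the 6, which is therefore not a result about the effectors. The 4 effectors with the smallest p were Gbp7 at 0.93 ± 0.21 (adjusted p = 0.26), Ifi44 at 1.79 ± 0.41 (adjusted p = 0.26), Ifit3b at 1.30 ± 0.31 (adjusted p = 0.28) and Gbp2 at 0.95 ± 0.23 (adjusted p = 0.28). The 5 negative ones were Rsad2 at -0.97 ± 0.79, Slfn2 at -0.22, Ifi207 at -0.14, Ifi35 at -0.13 and Bst2 at -0.06. All KO core libraries lay above all WT core libraries in log2 CPM for 11 effectors, as for 5.16% of all genes, and in TPM for 23, as for 10.7% of all genes.

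Without WT core replicate 3, 32 of 42 effectors were called higher in KO core than in WT core and none lower (0.998% of all genes called higher). The median was 1.21, against 0.02 over all genes, and all 42 were positive. By role the counts were 3 of 4 IFIT genes, 5 of 5 OAS genes, 5 of 6 sensors and PKR, 2 of 3 genes of the ISG15 system, 3 of 5 GTPases, 2 of 4 membrane and nucleotide effectors, 3 of 3 PARP and DTX3L genes, 6 of 6 TRIM, SP100, SAMD9L and Schlafen genes and 3 of 6 others. The 6 smallest p belonged to Cmpk2 at 0.72 ± 0.10 (adjusted p = 0.0098), Rtp4 at 1.67 ± 0.25 (adjusted p = 0.012), Ifit2 at 1.59 ± 0.24 (adjusted p = 0.013), Samd9l at 1.31 ± 0.21 (adjusted p = 0.013), Gbp2 at 1.25 ± 0.20 (adjusted p = 0.014) and Sp100 at 1.35 ± 0.22 (adjusted p = 0.014). KO core libraries lay above both remaining WT core libraries in log2 CPM for 41 effectors, all but Herc6, as for 18.1% of all genes, and in TPM for all 42, also as for 18.1% of all genes. The 10 effectors not called were Gbp7, Ifit3b, Ifi207, Rsad2, Ifi27l2a, Bst2, Ifi35, Lgals3bp, Gbp3 and Herc6, and their adjusted p ran from 0.053 to 0.19. No share of all genes called is set beside the counts that follow. The count of 32 rests on few libraries. It was 0 without WT core replicate 1 as well, 2 without KO core replicate 2, 13 without WT core replicate 2 and 19 without KO core replicate 1, while all 42 stayed positive in each case with medians of 1.01 to 1.34.

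The genes with the smallest p in that comparison show what their libraries held. Rtp4, whose product restrains viral RNA replication, measured 67.6, 76.7 and 53.1 TPM in KO core, against 17.6, 24.02 and 29.4 TPM in WT core. Ifit2 measured 47.5, 63.4 and 44.8 TPM in KO core, against 17.6, 17.1 and 44.4 TPM in WT core. Samd9l, a restriction factor against viruses, measured 12.8, 16.9 and 12.98 TPM in KO core, against 5.45, 6.20 and 9.30 TPM in WT core. For Rtp4, Ifit2 and Samd9l, WT core replicate 3 was the highest of its group in TPM and stayed below every KO core library. In log2 CPM it stayed below them for Rtp4, lay within them for Samd9l and lay above them for Ifit2. For Ifit2 it stood at 7.01, against at most 6.86 in KO core. Sp100, a nuclear body protein, measured 36.5, 45.5 and 26.6 TPM in KO core, against 14.5, 13.04 and 31.5 TPM in WT core. There WT core replicate 3 reached the KO core values in TPM and lay above them in log2 CPM.

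**Figure D3:**
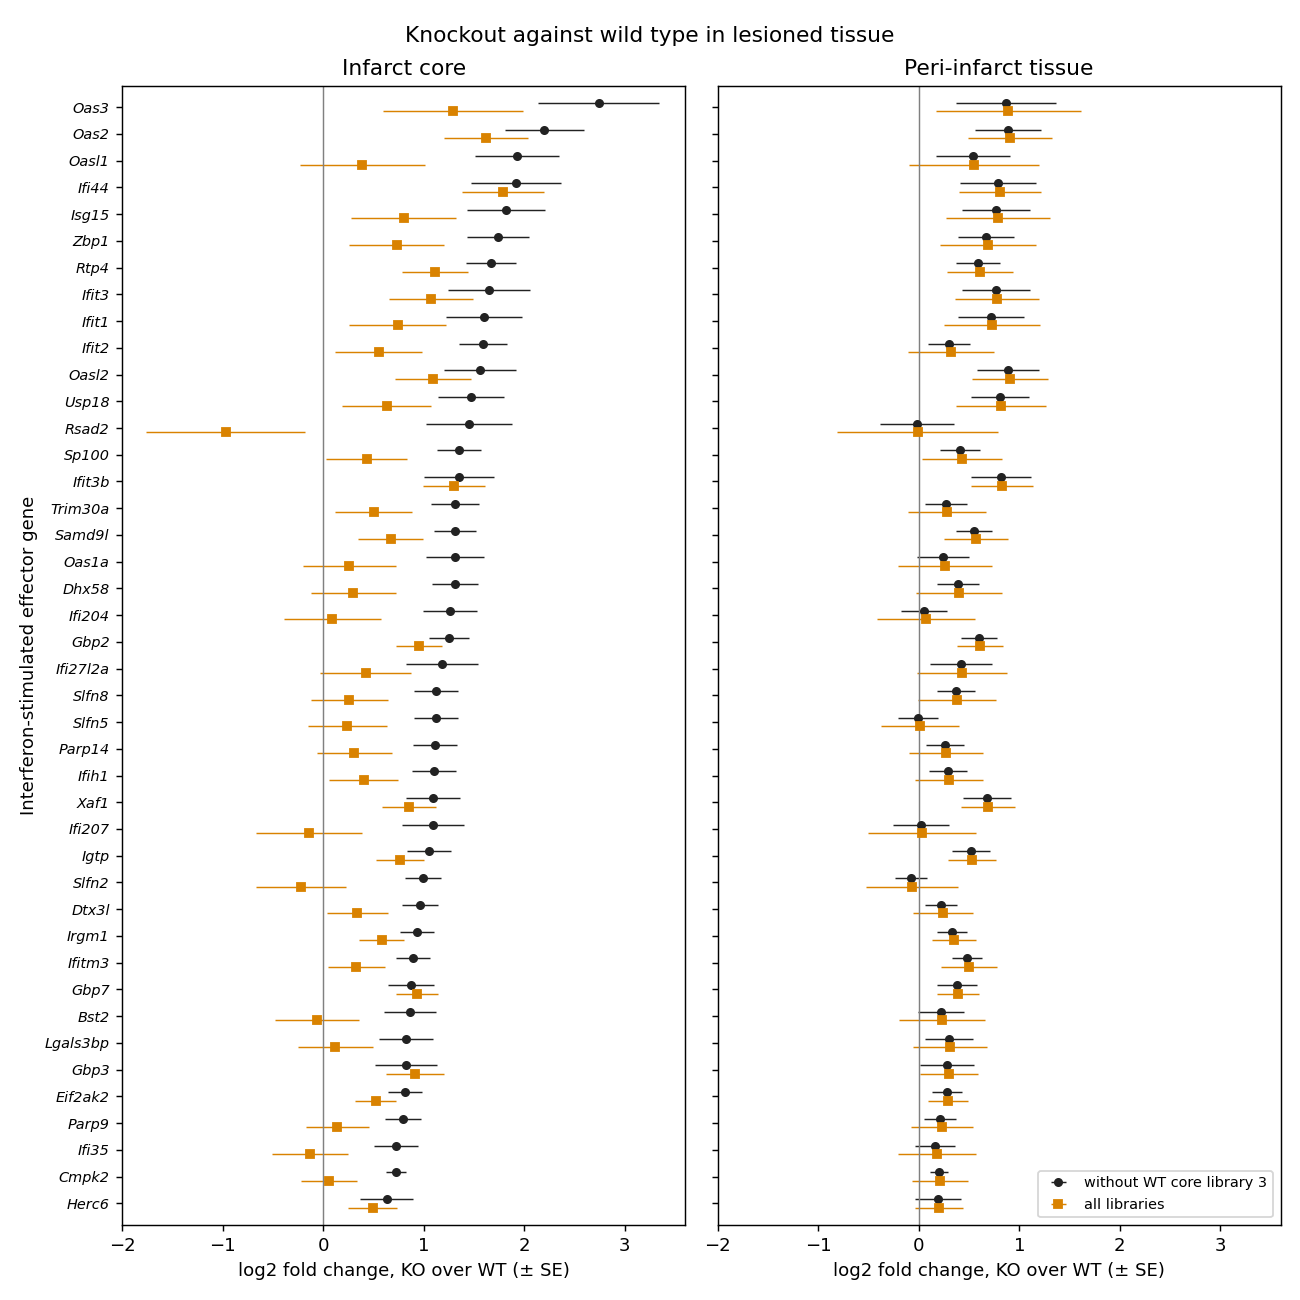
Difference between KO and WT (log2 fold change ± SE, edgeR) of the 42 effectors in the core and in peri-infarct tissue, with all libraries (orange squares) and without WT core replicate 3 (black circles). In the core the values without that library are all above 0 and higher than those with it for most effectors, while in peri-infarct tissue the same choice changes little.

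Other cell types' markers moved with genotype in the core, and their part in the result was not tested. The 7 neutrophil markers, of which S100a8, S100a9 and Cxcr2 were tested, summed to 259, 585 and 311 TPM in KO core, against 60.1, 96.95 and 375 TPM in WT core. Without WT core replicate 3, 2 of the 3 were called higher in KO core (median 2.62), while Ly6g was at 0 in 17 libraries and Mpo never passed 0.42 TPM. The 8 markers of infiltrating and border macrophages summed to 145, 217 and 159 TPM in KO core, against 102, 124 and 319.7 TPM in WT core, and all 8 were positive without WT core replicate 3 (median 0.67) with 0 called. The 6 fibroblast markers summed to 773, 1478 and 1235 TPM in KO core, against 663, 677 and 1263 TPM in WT core (median 0.84, 0 called). The 8 neuronal markers summed to 2285, 2335 and 2309.8 TPM in KO core, against 3463, 3036 and 4.36 TPM in WT core, and 3 of 8 were called lower without WT core replicate 3 (median -0.44). The 7 general myeloid markers were near 0 in that comparison (median 0.08, 4 of 7 positive, 0 called), as were the 8 microglial ones (median 0.17, 0 called). Markers of T and NK cells summed to at most 9.27 TPM and those of B cells to at most 7.15 TPM in any library. The 5 plasmacytoid dendritic cell markers summed to 128, 123 and 118 TPM in KO core, against 162, 138 and 4.78 TPM in WT core. The most abundant of them was Pacsin1, which neurons also express, at 76.8, 81.5 and 88.2 TPM in KO core, against 128, 107 and 0.18 TPM in WT core. Without WT core replicate 3 Pacsin1 was called lower in KO core, at -0.50 ± 0.09 (adjusted p = 0.014). Siglech, which microglia also express, stood at 50.6, 40.2 and 29.1 TPM in KO core, against 32.99, 30.9 and 4.10 TPM in WT core, while Ccr9 was at most 0.29 TPM and Klk1 at most 0.19 TPM in any library.

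In peri-infarct tissue 0 of 42 effectors passed between KO and WT in edgeR's quasi-likelihood test, with all libraries (0% of all genes called higher) or without WT core replicate 3 (0.0389%), and DESeq2 called 0 (0.111% of all genes). At an unadjusted p under 0.05 there were 6 with all libraries (3.23% of all genes, either direction) and 16 without that library (13.6%). The median difference was 0.39 (-0.00359 over all genes) and 40 of 42 were positive, all but Slfn2 at -0.07 and Rsad2 at -0.01. The smallest p belonged to Ifit3b at 0.83 ± 0.31, Gbp2 at 0.61 ± 0.23, Xaf1 at 0.69 ± 0.27 and Oasl2 at 0.91 ± 0.38, each with adjusted p = 1. Leaving out WT core replicate 3, they were Gbp2 at 0.60 ± 0.18 (adjusted p = 0.19), Ifitm3 at 0.48 ± 0.15, Samd9l at 0.55 ± 0.18 and Oasl2 at 0.89 ± 0.31. All KO libraries lay above all WT libraries in log2 CPM for 21 effectors, as for 8.02% of all genes, and in TPM for 26, as for 11.1%. The general myeloid markers went the other way there, with 0 of 7 positive, a median of -0.49 and 0 called, while the choroid plexus markers summed to 2066, 41.9 and 7607 TPM in KO, against 222, 101 and 54.02 TPM in WT peri-infarct tissue. Their part in the result was not tested.

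On the contralateral side 0 of 42 effectors passed between KO and WT, with all libraries (0% of all genes called higher) or without WT core replicate 3 (0.013%), and 0 had an unadjusted p under 0.05 with all libraries in edgeR's quasi-likelihood test (2.96% of all genes, either direction), nor did DESeq2 call any (0.0848% of all genes). The median difference was 0.20 (-0.02 over all genes), with 36 of 42 positive. The smallest p belonged to Oasl2 at 0.76 ± 0.39 (adjusted p = 1), Rtp4 at 0.55 ± 0.34, Usp18 at 0.76 ± 0.48 and Ifit3 at 0.60 ± 0.42, and the lowest value was that of Ifi207 at -0.75 ± 0.64. With WT core replicate 3 left out they were Rtp4 at 0.57 ± 0.25 (adjusted p = 0.45), Usp18 at 0.78 ± 0.34, Oasl2 at 0.78 ± 0.34 and Ifi207 at -0.73 ± 0.41. Rtp4 was the 1 effector whose KO libraries all lay above the WT libraries in log2 CPM, as for 6.43% of all genes, and Slfn2 the 1 whose KO libraries all lay below, as for 10.5%.

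Averaged over the 3 tissues, 0 of 42 effectors passed with all libraries in edgeR's quasi-likelihood test (0.0913% of all genes called higher), 17 had an unadjusted p under 0.05 (13% of all genes, either direction) and DESeq2 called 9 (2.74% of all genes). The smallest p belonged to Ifit3b at 0.85 ± 0.18 (adjusted p = 0.086), Oasl2 at 0.92 ± 0.22, Gbp2 at 0.57 ± 0.14 and Ifi44 at 1.00 ± 0.24. With WT core replicate 3 left out, 30 of 42 were called higher in KO tissue (2.26% of all genes called higher, median 0.59), led by Rtp4 at 0.95 ± 0.14 (adjusted p = 0.0024), Cmpk2 at 0.35 ± 0.06 (adjusted p = 0.0038), Samd9l at 0.69 ± 0.11, Gbp2 at 0.67 ± 0.11, Oas2 at 1.19 ± 0.22 and Usp18 at 1.02 ± 0.18. Leaving out 1 further library moved that count, up to 36 without WT contralateral replicate 1. It was lowest without WT core replicate 1, which leaves WT core with 1 library. No share of all genes called is set beside these further counts, so they do not show whether the effectors moved apart from other genes. Whether the genotype difference itself differed between tissues was tested by interaction terms. For the core response (core over contralateral, KO over WT) 0 of 42 passed with all libraries (0% of all genes; median 0.36, 33 positive, 3 with an unadjusted p under 0.05, as for 2.39% of all genes) or without WT core replicate 3 (0% of all genes; median 1.05, all 42 positive), with edgeR's quasi-likelihood test, and DESeq2 called 0 with all libraries (0.00652% of all genes). With all libraries the smallest p belonged to Gbp2 at 0.81 ± 0.33 (adjusted p = 0.98), Gbp7 at 0.72 ± 0.30, Ifi44 at 1.39 ± 0.60 and Ifit3b at 0.89 ± 0.44. The smallest p without that library belonged to Ifit2 at 1.67 ± 0.32 (adjusted p = 0.36), Slfn2 at 1.27 ± 0.26, Slfn5 at 1.46 ± 0.31 and Cmpk2 at 0.58 ± 0.14. For the peri-infarct response 0 of 42 passed as well in edgeR's test and in DESeq2 (0% of all genes, median 0.21, 38 positive, 0 with an unadjusted edgeR p under 0.05, as for 0.731% of all genes). Its smallest p belonged to Gbp2 at 0.47 ± 0.34 (adjusted p = 1), Irgm1 at 0.33 ± 0.31, Ifitm3 at 0.42 ± 0.40 and Xaf1 at 0.40 ± 0.39, and without WT core replicate 3 to Ifitm3 at 0.38 ± 0.23 (adjusted p = 1), Gbp2 at 0.43 ± 0.27, Ifi207 at 0.75 ± 0.50 and Irgm1 at 0.30 ± 0.22. The core-over-peri-infarct difference, added after the data were seen, had 0 of 42 called in edgeR's test (0% of all genes), 0 with an unadjusted p under 0.05 (1.87% of all genes) and a median of 0.07, or 0.79 with all 42 positive without WT core replicate 3. A difference in effect between tissues was therefore not shown.

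Effector and myeloid levels were also set side by side as a ratio, whose denominator itself moved with genotype. In peri-infarct tissue 0 of the 7 general myeloid markers were positive, as given above. Averaged over tissues without WT core replicate 3, Cd68 was called lower in KO tissue at -0.73 ± 0.16 (adjusted p = 0.017), as was Tyrobp at -0.52 ± 0.11 (adjusted p = 0.014). The ratio of their summed TPM to that of the 7 general myeloid markers (Ptprc, Itgam, Cd68, Tyrobp, Fcer1g, Csf1r and Aif1) was 0.872, 0.819 and 0.861 in KO core, against 0.357, 0.368 and 0.246 in WT core. In peri-infarct tissue it was 1.17, 1.20 and 1.09 in KO, against 0.390, 0.604 and 0.680 in WT libraries. On the contralateral side it was 0.996, 1.30 and 2.16 in KO, against 0.993, 0.770 and 0.757 in WT libraries. All 3 KO values lay above all 3 WT values in each tissue, WT core replicate 3 included, which had the lowest ratio of all 18. No such ratio was set beside it for other genes. On the contralateral side the effector sums overlapped, at 430.5 to 714 TPM in KO and 360.2 to 592 TPM in WT. The myeloid sums there did not overlap, at 330.4 to 432 TPM in KO and 468 to 621 TPM in WT. A lower myeloid sum raises this ratio just as a higher effector sum does. The ratio is a description of bulk tissue, and which cells carry the effector transcripts was not measured.

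**Figure D4:**
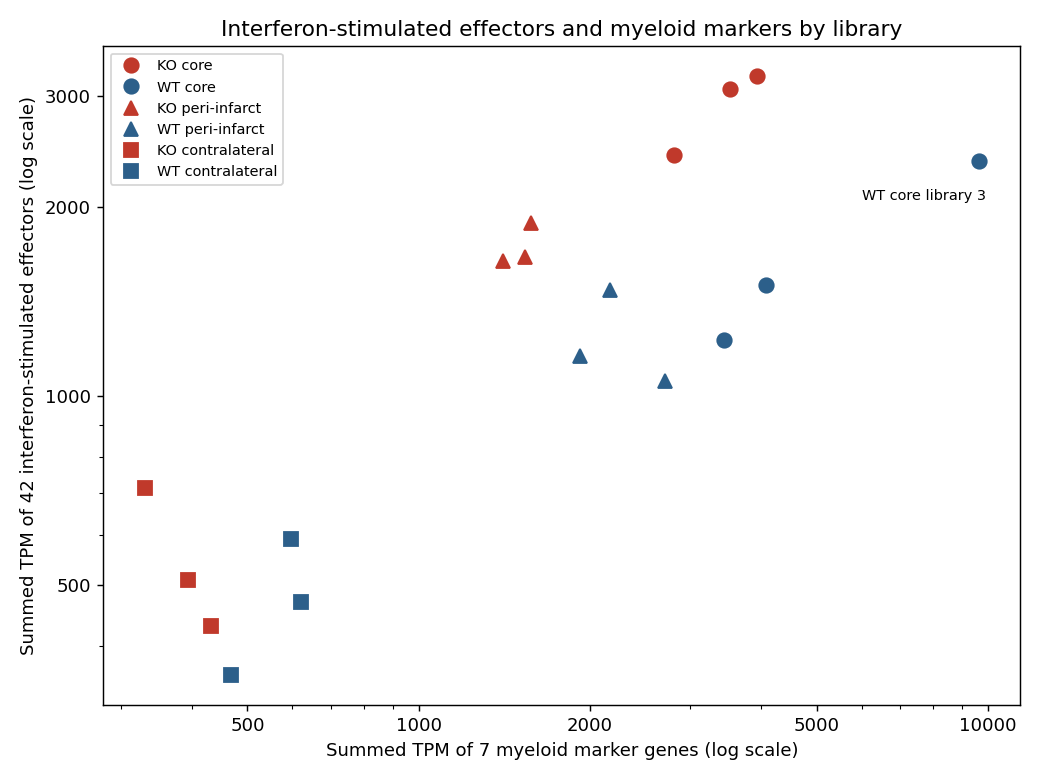
Summed TPM of the 42 effectors against summed TPM of the 7 general myeloid markers in the 18 libraries, both axes logarithmic, by tissue and genotype. KO lesion libraries lie above WT lesion libraries relative to their myeloid sum, and WT core replicate 3 lies farthest right at 9633 TPM of myeloid markers with 2369 TPM of effectors.

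Genes of the pathway outside the effectors were followed by a list of 55, of which 40 were in the tables and 35 passed the filter. Of the 16 interferon genes listed, 4 were in the tables and 0 passed the filter, and the highest level of any was 0.29 TPM, so the ligands could not be compared at this depth. Without WT core replicate 3, 10 of the 35 were called higher in KO core than in WT core and 0 lower. Of all genes 0.998% were called higher there. Among the 8 tested receptors and kinases, 0 were called in that comparison, with a median of 0.05. Transcription factors called higher in that comparison included Stat2 at 0.81 ± 0.14, Irf1 at 0.86 ± 0.14, Irf7 at 2.04 ± 0.43 and Irf9 at 0.92 ± 0.18. Irf7, which drives type I interferon genes, measured 100.3, 107 and 70.6 TPM in KO core, against 19.8, 25.99 and 34.3 TPM in WT core, and the groups did not overlap in TPM with replicate 3 counted. Of the 11 upstream sensing genes 2 were called, Ddx58 (RIG-I) at 1.09 ± 0.22 and Myd88 at 0.45 ± 0.10, and of the 7 genes listed as inhibitors or as enzymes that act on nucleic acids 3 were called, namely Socs3, which restrains JAK signalling, Samhd1, which breaks down deoxynucleotides, and Isg20, an antiviral RNA exonuclease. With all libraries 0 of the 35 passed between KO and WT core in edgeR's quasi-likelihood test. Against contralateral tissue 28 of the 35 rose in KO core (19.7% of all genes called higher) and 29 in WT core (29.1%). In WT core 1 fell (11.5% of all genes called lower). In peri-infarct tissue 13 rose in KO (4.42% of all genes called higher) and 5 in WT tissue (3.27%).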

How the data were processed

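Estimated counts per gene and library, and TPM, which are normalised for transcript length and depth, were deposited by the authors as 2 tables of 18922 genes. Per the submitters' processing notes the build was GRCm39 and the tools included Subread, Bowtie2 and HISAT2 2.0.4, and the counter and its use of strand are not given in the sources used here. Some estimated counts were not whole (in 3678 genes, 16 of them effectors), as the authors deposited them, although whole counts had been assumed when the tests were planned, and they were rounded. The effectors not flagged above were Igtp in 9 libraries, Ifit1 in 7 and Gbp3 and Gbp7 in 2 each. Differences were tested with edgeR 4.0.16 (R 4.3.3): filterByExpr by group, TMM, quasi-likelihood F test with robust fitting, a mean for each of the 6 groups, 12 contrasts and Benjamini-Hochberg adjustment over the 15329 genes tested (15432 without WT core replicate 3), with a gene called at an adjusted p under 0.05. The SE is the log2 fold change over the square root of F. The scripts were tested on simulated data. DESeq2 1.42.0, limma 3.58.1 on log2(TPM + 1) and log2(TPM + 0.1), other scalings and filters, a replicate block and leaving out each library were alternatives. Levels are TPM as deposited.

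The members, gene lists and tests were chosen with earlier results of these data known. Values in every library are given for the member of each role with the highest mean log2 CPM and the member with the largest mean lesion change. In each genotype comparison the 6 called members with the smallest p are named, or 4 where none is called. Other members were named after their values were seen. Replicate numbers are shared by all groups, but the labels do not say that a number marks a mouse. WT peri-infarct and WT contralateral tissue were the only groups whose same-numbered libraries had a correlation of deviations over 0.1 for all 3 numbers (0.386 to 0.436). Values of some listed pathway genes are not reported here.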

Additional observations from a re-analysis of the deposited data

How the results depend on the processing

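Alternatives were counted for the named effectors of each role, in comparisons where they were called with all libraries. No genotype comparison is among them, since no effector was called there. Of these 1275 alternative values, 1120 kept their direction and side of the threshold, 155 kept the direction without passing, and 0 reversed. Signs did change between KO and WT core when WT core replicate 3 was left out. Rsad2 went from -0.97 to 1.45, Slfn2 from -0.22 to 0.99 and Ifi207 from -0.14 to 1.09. For KO core over KO peri-infarct tissue, effectors called were 7 with DESeq2 (5.84% of all genes) and 17 and 9 with limma on log2(TPM + 1) and log2(TPM + 0.1). Fitting the compared libraries alone gave 39, and leaving out 1 library gave 0 to 32. The 32 came without WT core replicate 3, where 24.3% of all genes were called higher. For WT peri-infarct over contralateral tissue the effectors called were 12 with DESeq2's size factors, 37 with the compared libraries alone and 0 to 40 leaving out 1 library. The KO count ran from 3 to 41. The 40 and 41 came without WT core replicate 3, where 14.2% and 13.7% of all genes were called higher. For WT core over contralateral tissue the compared libraries alone gave 0. For WT core over peri-infarct tissue DESeq2 gave 15, both TPM scales, the replicate block and the compared libraries alone gave 0, and leaving out 1 library gave 0 to 25. KO against WT core gave 5 with DESeq2 (0.594% of all genes), 6 on log2(TPM + 1) and 0 to 32 leaving out 1 library. Averaged over tissues the counts were 9 with DESeq2 (2.74% of all genes), 6 on log2(TPM + 1), 5 on log2(TPM + 0.1) and 0 to 30. The 32 and 30 came without WT core replicate 3, where 0.998% and 2.26% of all genes were called higher. Without WT core replicate 3, leaving out 1 more library gave 0 to 35 in the core, where a lone WT core library is assumed to vary like the other groups. The share of all genes called also moved between settings and is given only for some. Counts without that share are therefore not results about the effectors apart from other genes. The cause of these shifts was not tested.

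With the replicate block, the WT peri-infarct count was 16 against 20 and the core genotype count without WT core replicate 3 was 22 against 32, and no other count moved by more than 1.5 times beside those above. On log2(TPM + 1) the median of all genes moved to -0.34 between WT core and contralateral tissue. At this depth the interferon genes, at 0.29 TPM or less, could not be compared, and the core genotype result rests on 2 WT libraries once replicate 3 is left out.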
